A study of Homo sapiens with 2 samples.

Results

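Immediate early genes are transcribed within minutes of a stimulus from preformed factors, with no need for new protein. Serum response factor, which binds the CArG box with ELK-type ETS partners, and CREB, which binds the cyclic AMP response element (CRE), are the classic activators at their promoters. Many of the products are themselves transcription factors or feedback regulators of MAPK signalling. The genes described here are 10 of them, taken as a named list from 19974 protein-coding genes on chromosomes 1 to 22 and X. They are the zinc finger transcription factor genes EGR1, EGR2 and EGR3, the nuclear receptor gene NR4A1, IER2 and IER5, and the feedback genes BTG2, ZFP36, PPP1R15A and DUSP1.

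The data came from ChIPmentation, a chromatin immunoprecipitation in which Tn5 transposase inserts the sequencing adapters on the captured chromatin, in the pancreatic ductal adenocarcinoma line PANC-1, an established human line. The 2 samples were cells given inflachromene, a compound that binds the chromatin proteins HMGB1 and HMGB2, and cells treated with the solvent DMSO, both crosslinked with EGS and formaldehyde. The sources used here do not give the antibody's target, nor the dose or treatment time, so a peak below is a position of enriched fragments and not the site of a named protein. Each treatment had 1 library, so every difference compares these libraries, without a replicate check or test. Intervals on pileups and ratios cover counting error only. Intervals on shares treat the chosen genes or peaks as independent draws, which they are not, and give no test.

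The peak lists held 10836 peaks for inflachromene and 15186 for DMSO on the chromosomes analysed, with a median of 23 fragments over the summit in both. By inference from the backgrounds, the inflachromene library held 0.964 times as many fragments as DMSO, of a length of 165.7 bp against 152.4 bp, and its lowest background was 1.05 times that of DMSO. Of 6 ductal, epithelial and mesenchymal markers, 5 had an inflachromene peak and 6 a DMSO peak at a gene end. Of 10 markers of other cell types, SPI1 alone had a peak, in both lists.

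A gene was counted as having a peak at an end when a summit lay within 1000 bp of either end of its RefSeq annotation. By this rule 8 of the 10 genes had a peak in both lists, 80% (exact Clopper-Pearson 95% interval 44.4 to 97.5), and EGR2 and EGR3 had none in either. Of all protein-coding genes, 38% had an inflachromene peak, 45.7% a DMSO peak and 36.3% both. With this window no gene of the list had an end peak in 1 library alone. Of all genes with a DMSO end peak, 20.6% had no inflachromene end peak, and 8 genes are too few to set the list apart from that share. Gene starts were told from 3′ ends through the strand in a RefSeq promoter table, which covers 9 of the 10 genes and not EGR3.

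The sequences upstream of 5 of these starts are shown first. Promoter summits lay in or beside them, except in DMSO at EGR1, 704 bp upstream of the start. Those of EGR1, EGR2, DUSP1 and PPP1R15A, but not IER5, carry elements by which immediate early genes are classically switched on. All 5 sequences are printed below. They are the 250 bases before an annotated start, read 5′ to 3′ in the direction of transcription, from RefSeq on GRCh38.p14, with capitals marking every CArG box, CRE (TGACGTCA), CRE core (TGACG, either strand) and TATA box (TATAAA). EGR1 and EGR2 hold CArG boxes, and DUSP1 and PPP1R15A a full CRE and a TATA box. IER5, whose ratio of inflachromene to DMSO pileup was the lowest, holds no exact match to these motifs. Its tataag near the start differs from TATAAA in the last letter alone. PPP1R15A had the next lowest ratio, and the sequences upstream of ZFP36 and NR4A1 also hold no exact match. A link between motifs and ratio was not tested.
EGR1, chr5:138465229-138465478, plus strand: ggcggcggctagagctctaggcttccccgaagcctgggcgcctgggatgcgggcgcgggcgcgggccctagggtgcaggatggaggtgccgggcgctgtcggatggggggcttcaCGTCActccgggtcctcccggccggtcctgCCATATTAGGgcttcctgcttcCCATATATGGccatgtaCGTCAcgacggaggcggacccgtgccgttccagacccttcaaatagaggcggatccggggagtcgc
EGR2 innermost start, chr10:62816367-62816616, minus strand: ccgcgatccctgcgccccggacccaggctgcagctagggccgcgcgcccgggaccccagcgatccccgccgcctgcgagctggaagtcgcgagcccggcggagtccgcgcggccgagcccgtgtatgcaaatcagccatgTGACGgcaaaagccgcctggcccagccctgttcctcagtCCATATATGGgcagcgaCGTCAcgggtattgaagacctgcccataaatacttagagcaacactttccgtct
DUSP1, chr5:172771196-172771445, minus strand: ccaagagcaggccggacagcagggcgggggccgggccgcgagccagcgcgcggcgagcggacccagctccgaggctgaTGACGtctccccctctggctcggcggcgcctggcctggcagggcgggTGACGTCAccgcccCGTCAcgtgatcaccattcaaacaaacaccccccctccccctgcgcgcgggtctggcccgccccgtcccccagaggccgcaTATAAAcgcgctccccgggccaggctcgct
PPP1R15A, chr19:48872171-48872420, plus strand: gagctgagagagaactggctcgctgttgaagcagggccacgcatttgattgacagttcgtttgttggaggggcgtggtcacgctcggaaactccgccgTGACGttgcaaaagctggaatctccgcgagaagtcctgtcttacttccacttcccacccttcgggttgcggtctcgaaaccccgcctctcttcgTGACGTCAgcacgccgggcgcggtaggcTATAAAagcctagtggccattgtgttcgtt
IER5, chr1:181088450-181088699, plus strand: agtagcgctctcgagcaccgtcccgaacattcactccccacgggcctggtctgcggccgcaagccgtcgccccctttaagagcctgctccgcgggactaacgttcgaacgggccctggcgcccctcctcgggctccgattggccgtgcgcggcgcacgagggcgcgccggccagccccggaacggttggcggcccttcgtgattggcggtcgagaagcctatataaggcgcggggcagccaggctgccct

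The CArG boxes of EGR1 began at positions -105 and -83 from the start, and that of EGR2 at -71. In windows of 250 bases before to 50 after a start, a CArG box stood in 1.25% of 22132 starts of protein-coding genes and in 2 of the 12 windows of the listed genes, those of EGR1 and EGR2. The full CRE, at -125 in DUSP1 and -58 in PPP1R15A, stood in 2.26% of all windows. The TATA box of both genes began at -30 and the motif stood in 9.46% of all windows on either strand. The CRE core, which is part of the full CRE, was present in 6 of the 12 windows, those of BTG2, DUSP1, EGR1, EGR2, IER2 and PPP1R15A, and in 27.9% of all windows. The AP-1 site TGANTCA was in none of the 12 and in 6.15% of all. The EGR family's own site, GCGNGGGCG, was in the windows of EGR1, BTG2 and the middle start of EGR2, against 12.2% of all. The ETS site CCGGAA was in those of IER2, IER5 and the outer start of NR4A1, against 21.2%. The GC box GGGCGG was in 7 of the 12, against 56.3%, and the TEAD site GGAATG in 2 of the 12, those of ZFP36 and the outermost start of EGR2, against 12.2%. All motifs were searched on both strands, and an EGR site can overlap a GC box. These are matches of letters, not shown sites of binding.

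**Figure D1:**
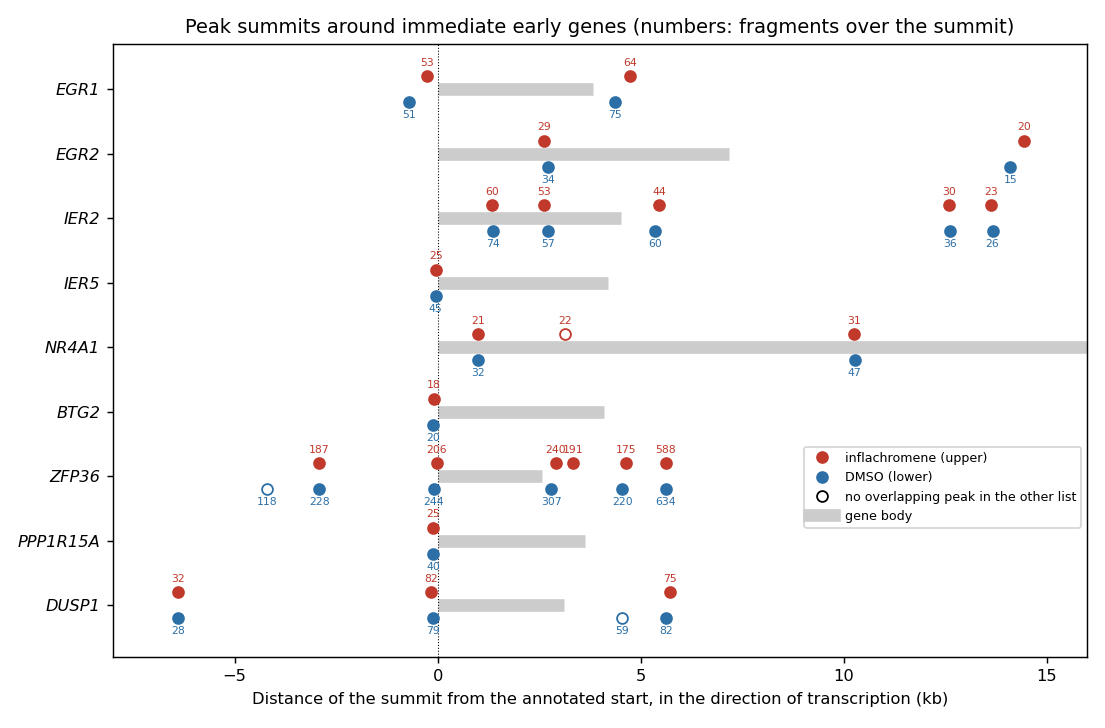
Peak summits of the inflachromene library (red, upper row of each gene) and the DMSO library (blue, lower row), by distance in kb from the annotated start in the direction of transcription; numbers are fragments over the summit, open circles have no overlapping peak in the other list and grey bars are gene bodies. Summits flank the bodies of EGR1, DUSP1 and ZFP36, sit at the start alone in IER5, BTG2 and PPP1R15A, and in EGR2 lie at an inner start; EGR3, without a strand in the table, and summits farther out are not drawn.

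EGR1, encoding the best studied transcription factor of the family, lies on chromosome 5 (138465479 to 138469303). Its promoter peak held 53 fragments in inflachromene (exact Poisson 95% interval 39.7 to 69.3) and 51 in DMSO (38.0 to 67.1), a ratio of 1.04 (0.694 to 1.56). The promoter summits lay 275 bp upstream of the start in inflachromene and 704 bp upstream in DMSO, so the overlapping peaks, 683 bp and 727 bp wide, had their high points 429 bp apart. A larger peak stood beyond the 3′ end, with 64 fragments in inflachromene, 908 bp past the end, and 75 in DMSO, 532 bp past it. In DMSO this peak was 1500 bp wide, against 697 bp in inflachromene. Neither library had a summit inside the gene.

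EGR2 and EGR3 encode close relatives of EGR1. EGR2 has 3 annotated starts on the minus strand of chromosome 10 (62811996 to 62819167), and its peak lay at the innermost, 193 bp upstream in inflachromene and 87 bp upstream in DMSO, too far from the gene's outer ends to be counted by the rule. It held 29 fragments in inflachromene and 34 in DMSO, a ratio of 0.853 (0.501 to 1.44). The next peak, 7.26 kb past the 3′ end in inflachromene and 6.93 kb in DMSO, lay at ADO, the gene of cysteamine dioxygenase, with 20 fragments in inflachromene and 15 in DMSO. EGR3, on chromosome 8, had no inflachromene peak within 50 kb and 1 weak DMSO peak of 11 fragments, 1824 bp from its higher-coordinate end. EGR4, the remaining family member, had 19 fragments in inflachromene and 22 in DMSO. In both libraries the pileup at these peaks was highest at EGR1, then EGR2 and EGR4.

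NR4A1 encodes the orphan nuclear receptor NUR77 and is the longest gene of the list, 36672 bp on chromosome 12. Its peak at the outer start was just inside the window, 995 bp downstream of the start in inflachromene and 994 bp in DMSO, with 21 fragments in inflachromene and 32 in DMSO, a ratio of 0.656 (0.360 to 1.17). Peaks 10248 and 28422 bp from the start in inflachromene held 31 and 29 fragments, against 47 and 45 in the overlapping DMSO peaks. The peak 10.2 kb past the 3′ end, inside ATG101, had 39 fragments in inflachromene against 51 in DMSO. All 4 paired positions were lower in inflachromene, with ratios from 0.644 to 0.765, and each counting interval reached above 1. Of all DMSO peaks with an inflachromene counterpart, 74.7% were lower in inflachromene. A DMSO peak of 44 fragments 959 bp past the 3′ end had no inflachromene counterpart, and an inflachromene peak of 22 fragments 3141 bp into the gene had no DMSO counterpart. The paralogues NR4A2 and NR4A3 had 20 and 19 fragments in inflachromene against 18 and 16 in DMSO, differences of a few fragments.

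IER2 and IER5 encode nuclear proteins of the immediate early response family; IER5 is known as a regulator of the heat shock factor HSF1. IER2 (chromosome 19, 13150411 to 13154911) had no summit within 1000 bp of its annotated start. Its 3 peaks lay inside the gene, at 1346 and 2611 bp in inflachromene and 1351 and 2713 bp in DMSO, and 945 and 861 bp past the 3′ end. They held 60, 53 and 44 fragments in inflachromene, against 74, 57 and 60 in DMSO. The last is the one counted at a gene end, with a ratio of 0.733 (0.485 to 1.10). A further group of 3 peaks 12.6 to 17.4 kb downstream of the start held 30, 23 and 21 fragments in inflachromene and 36, 26 and 20 in DMSO.

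IER5 (chromosome 1, 181088700 to 181092900) had the lowest ratio of the list. Its promoter peak, 32 bp upstream of the start in inflachromene and 49 bp in DMSO, held 25 fragments in inflachromene (16.2 to 36.9) and 45 in DMSO (32.8 to 60.2). The ratio was 0.556 (0.326 to 0.926), the only interval wholly below 1 among the 8 ratios compared at the peaks of highest fold enrichment. Of the 7254 protein-coding genes with a peak in both lists, 5.09% had a lower ratio. The 2 other DMSO peaks of the locus, of 22 fragments 12.5 kb and 17 fragments 49.8 kb past the 3′ end, had no inflachromene counterpart. The related gene IER5L had 23 fragments in inflachromene and 25 in DMSO.

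PPP1R15A encodes GADD34, which directs a phosphatase to the translation factor eIF2. Its promoter peak on chromosome 19 lay 108 bp upstream of the start in inflachromene and 107 bp in DMSO, with 25 fragments in inflachromene (16.2 to 36.9) and 40 in DMSO (28.6 to 54.5), a ratio of 0.625 (0.363 to 1.06). Both summits lay within the sequence printed above. The constitutive paralogue PPP1R15B had 48 fragments in inflachromene and 54 in DMSO. BTG2, encoding an antiproliferative partner of the CCR4-NOT deadenylase, had the end peak of fewest fragments, 99 bp upstream of its start in inflachromene and 110 bp in DMSO. It held 18 fragments in inflachromene and 20 in DMSO, a ratio of 0.900 (0.449 to 1.79), and its paralogue BTG1 had 64 and 63. A distal peak 17.9 kb past the 3′ end of BTG2 had 19 fragments in inflachromene and 25 in DMSO.

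DUSP1 encodes a nuclear phosphatase that inactivates MAP kinases. Its promoter peak on chromosome 5 lay 169 bp upstream of the start in inflachromene and 128 bp in DMSO, with 82 fragments in inflachromene (65.2 to 101.8) and 79 in DMSO (62.5 to 98.5), a ratio of 1.04 (0.753 to 1.43). A peak 2613 bp past the 3′ end in inflachromene and 2515 bp past it in DMSO held 75 and 82 fragments. A second DMSO peak there, of 59 fragments 1448 bp past the end, had no inflachromene counterpart. Upstream peaks 6404 and 11242 bp from the start in inflachromene held 32 and 26 fragments, against 28 and 31 in DMSO. The MAP kinase phosphatase gene DUSP6 had 41 fragments in inflachromene and 52 in DMSO, DUSP5 had 26 and 34, and DUSP2 and DUSP4 had no end peak.

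ZFP36 encodes tristetraprolin, which binds AU-rich elements and speeds mRNA decay. It lies on chromosome 19 (39406847 to 39409407) among high peaks. Its promoter peak held 206 fragments in inflachromene (178.8 to 236.1) and 244 in DMSO (214.3 to 276.6), a ratio of 0.844 (0.698 to 1.02). Beyond the 3′ end, summits of 240 and 191 fragments in inflachromene, 341 and 763 bp past it, overlapped a single DMSO peak of 307 fragments 232 bp past it, with a ratio of 0.782 (0.658 to 0.929) for the higher summit. Next followed a peak of 175 fragments in inflachromene and 220 in DMSO, then the peak at the neighbouring gene PLEKHG2 with 588 and 634. Of the DMSO peaks within 50 kb, 11 had an inflachromene counterpart. All 11 were lower in inflachromene, against 74.7% of all DMSO peaks with a counterpart. These 11 held a median of 244 fragments in DMSO, against 23 over the DMSO list. At such pileups counting error lifts fewer ratios above 1, so the 2 shares are not alike. Their median ratio was 0.820, against 0.833 over all shared DMSO peaks, and the ratios ran from 0.602 to 0.927. The lowest was at a peak inside MED29, and the peak shared by MED29, PAF1 and SAMD4B held 907 fragments in inflachromene and 1139 in DMSO. In log2 pileup over the 2 libraries, the genes nearest to ZFP36 outside the lists were DYRK1B and TIMM50, also on chromosome 19, and RPS12, at distances of 0.22, 0.24 and 0.26. The relatives ZFP36L2, with 27 fragments in inflachromene and 32 in DMSO, and ZFP36L1, with no end peak, lie on other chromosomes.

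**Figure D2:**
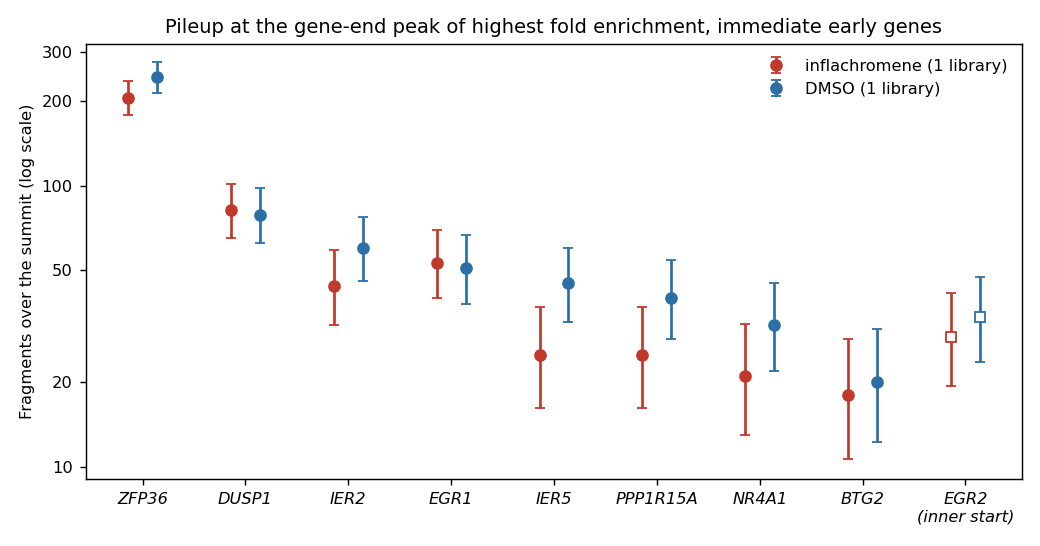
Fragments over the summit (log scale) at the end peak of highest fold enrichment of each gene, for inflachromene (red, left) and DMSO (blue, right), 1 library each, with exact Poisson 95% intervals; open squares are the EGR2 peak at the inner start, outside the end rule. ZFP36 stands apart at 206 and 244 fragments, and the intervals of the libraries overlap at every gene drawn.

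Ordered by pileup, the 8 genes ran from ZFP36 and DUSP1 to NR4A1 and BTG2 in both libraries, as the plot of fragments by gene shows. Apart from ZFP36 against DUSP1, the Poisson intervals of neighbours in this order overlapped in each library. Of the 8 genes, 6 had fewer fragments over the summit in inflachromene, and EGR1 and DUSP1 slightly more, against 77.3% lower among the 7254 protein-coding genes with an end peak under both treatments. The median ratio was 0.789, and 0.821 over those 7254 genes, whose quartiles were 0.706 and 0.963. Inflachromene was lower by at least a factor of 1.5 at IER5, PPP1R15A and NR4A1, 3 of 8, and at 18.9% of all genes. The lower counts at these genes were thus in the range of the whole list. By the authors' fold enrichment, a different measure, the median ratio of the 8 genes was 0.916, with no value for all genes set beside it.

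**Figure D3:**
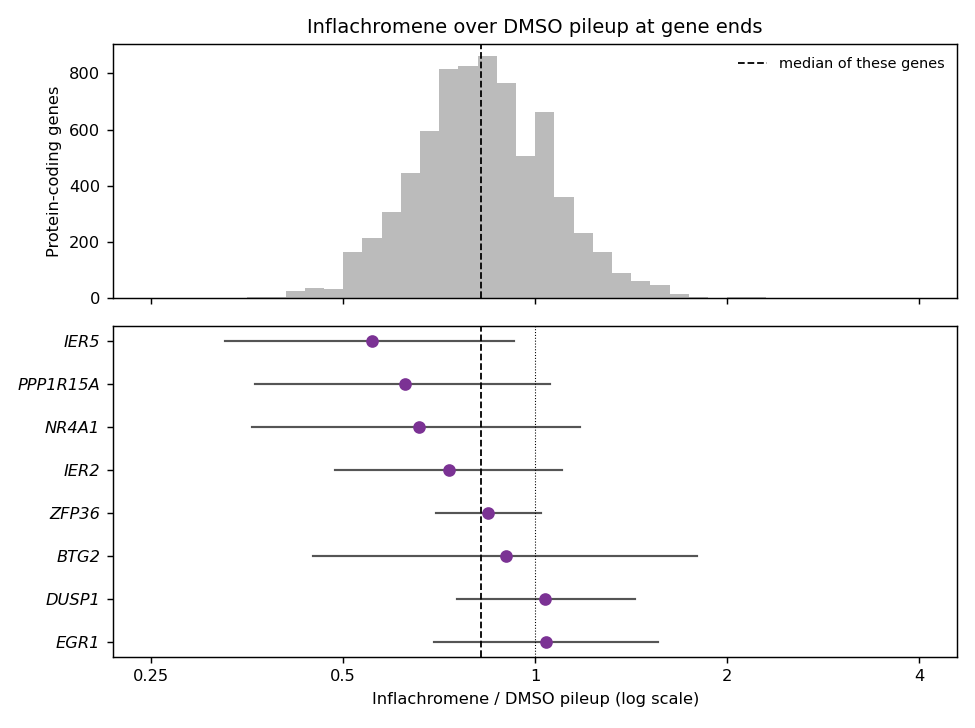
Upper panel, inflachromene over DMSO pileup (log scale) for the 7254 protein-coding genes with an end peak in both lists; lower panel, the 8 immediate early genes with exact counting intervals. The dashed line is the median of all genes, 0.821; the gene ratios run from 0.556 for IER5 to 1.04 for EGR1 and lie on both sides of it.

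The signal around the peaks was high at EGR1, IER2, DUSP1 and ZFP36. The caller's local background was read, by inference, as the mean coverage in a 10 kb window around the summit, since it took values spaced as if each fragment end in that window added 1 equal step. At the end peak it was 13.1 fragments per base in inflachromene and 13.2 in DMSO for EGR1, 11.0 and 12.8 for IER2, 11.8 and 14.4 for DUSP1 and 70.8 and 84.8 for ZFP36. The median over all genes with an end peak was 2.06 in inflachromene and 2.04 in DMSO. A background of 10 or more, a limit set after these values were seen, was thus reached by 4 of the 8 genes in each library (50%, 15.7 to 84.3). Among all genes with an end peak it was reached by 0.606% in inflachromene and 0.701% in DMSO. With the limit set on the same genes, the interval is no test against these shares. The other 4 genes had backgrounds between 1.52 for BTG2 and 3.70 for NR4A1 in inflachromene, and between 1.74 for BTG2 and 3.69 for IER5 in DMSO. NR4A1 reached 11.3 in DMSO at the peak past its 3′ end.

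**Figure D4:**
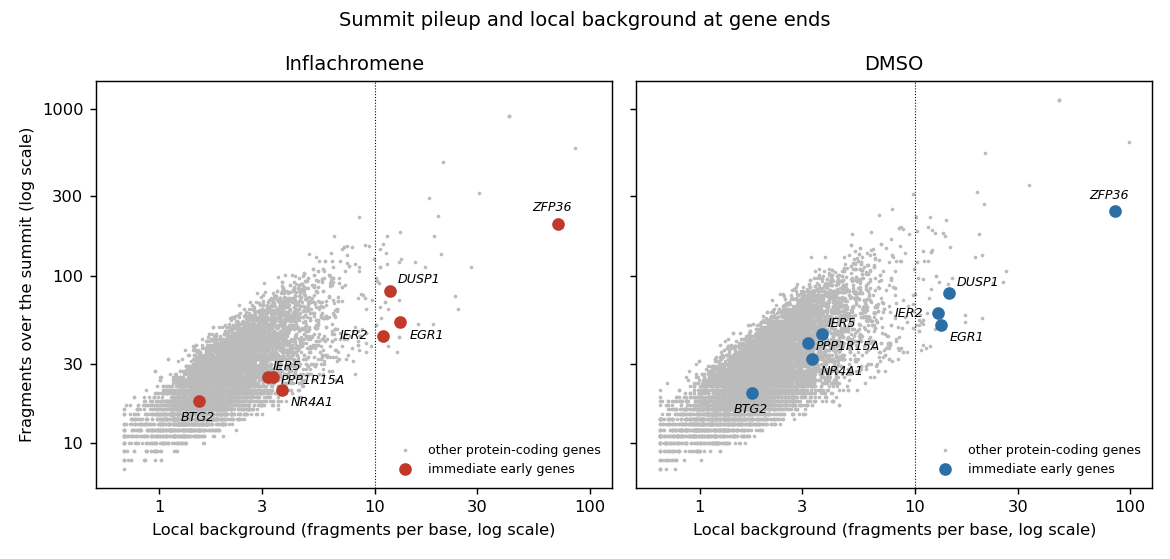
Fragments over the summit against local background (both log scale) at the gene-end peak of highest fold enrichment, for inflachromene (left) and DMSO (right); grey points are the other protein-coding genes with an end peak, coloured points the immediate early genes, and the dotted line marks a background of 10. EGR1, IER2, DUSP1 and ZFP36 lie right of the line in both panels, with fewer fragments for their background than most genes.

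The fold enrichment, which is set against this background, was below the median of all genes at the 4 genes, but not at these alone. The fold enrichment at the end peak was 3.82 in inflachromene and 3.67 in DMSO for EGR1, 3.76 and 4.43 for IER2, 6.47 and 5.19 for DUSP1, and 2.88 and 2.86 for ZFP36. The median of all genes with an end peak was 8.55 in inflachromene and 9.37 in DMSO. The other 4 genes were also below it in inflachromene, at 4.68 for NR4A1, 5.94 for PPP1R15A, 6.22 for IER5 and 7.53 for BTG2. In DMSO NR4A1 and BTG2 were below it, at 7.62 and 7.65, and IER5 and PPP1R15A above it, at 9.80 and 9.78. In pileup the listed genes had medians of 34.5 in inflachromene and 48 in DMSO, against 25 and 28 for all genes. The listed genes are short, with a median length of 4142.5 bp against 24170.5 bp for all protein-coding genes, so that a 10 kb window can hold the whole gene. Among the 2009 genes of 10 kb or less with a DMSO end peak, 1.94% had a background of 10 or more. For ZFP36, the surrounding segment was raised as well: every peak within 50 kb had a background of at least 12.9 in inflachromene and 13.5 in DMSO. Of the genes over the limit of 10, chromosome 19, which also carries IER2, held 29 of 46 in inflachromene and 32 of 64 in DMSO. The share of chromosome 19 among all genes with an end peak was not set beside these counts.

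Counted in inferred fragment ends in the 10 kb window around the summit, EGR1 had 1587 in inflachromene and 1731 in DMSO, IER2 1322 and 1675, DUSP1 1428 and 1894, and ZFP36 8544 and 11131. Of the others, IER5 had 384 and 485, BTG2 184 and 229, PPP1R15A 408 and 419, and NR4A1 447 and 437. The count was lower in inflachromene at 7 of the 8 genes, against 83.5% of genes shared by the lists, with a median ratio of 0.798 against 0.873. At DUSP1 the ratio over 10 kb was 0.754, while the ratio at the promoter summit was 1.04 (0.753 to 1.43). At PPP1R15A the ratios were 0.974 over 10 kb and 0.625 (0.363 to 1.06) at the summit. At both genes the counting interval of the summit ratio contained the ratio over 10 kb. Ends come in pairs, so no counting interval is given for them.

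A summit past the 3′ end was frequent in the list. A summit up to 3000 bp beyond the 3′ end, and over 1000 bp from every annotated start of a protein-coding gene, was found at EGR1, IER2, DUSP1 and ZFP36 in inflachromene and at these and NR4A1 in DMSO. That is 4 of 9 genes with a strand (13.7 to 78.8%) in inflachromene and 5 of 9 (21.2 to 86.3%) in DMSO, against 1.78% and 2.69% of 15813 protein-coding genes. The distance was chosen after the summits of these genes had been seen, so the intervals are no test against the shares of all genes. A summit within 1000 bp of the start was found in 7 of the 9 genes in each library, all but EGR2 and IER2, against 39.7% in inflachromene and 47.3% in DMSO. EGR1, IER2, DUSP1 and ZFP36 thus had both the high background and the 3′ summit, while IER5, BTG2 and PPP1R15A had neither. NR4A1 had the 3′ summit in DMSO, with a background of 3.33 at its end peak. The 2 traits are not independent, as the 10 kb window read as background can reach past the 3′ end of a short gene. At IER2 the end peak is itself the 3′ summit. At EGR1 and ZFP36 the 3′ summit held more fragments than the promoter summit in both libraries, and at DUSP1 and NR4A1 in DMSO alone; in each case the Poisson intervals of the 2 summits overlapped.

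Within 50 kb of the 10 genes lay 40 inflachromene peaks and 50 DMSO peaks, of which 12 and 14 were around ZFP36. The median gene of the list, EGR2 and EGR3 included, had 3 inflachromene and 4 DMSO peaks. The medians were 1 and 2 for all protein-coding genes, and 2 and 3 for those with an end peak in both lists. A DMSO peak overlapped 38 of the 40 inflachromene peaks, 95% (83.1 to 99.4), and 90.4% of all inflachromene peaks. Conversely an inflachromene peak overlapped 37 of the 50 DMSO peaks, 74% (59.7 to 85.4), and 64.5% of all DMSO peaks. The 37 DMSO peaks with a counterpart had a median of 51 fragments and the 13 without one a median of 24. Inflachromene had the lower pileup at 31 of the 37 paired positions, with a median ratio of 0.834, against 74.7% of all shared DMSO peaks and a median of 0.833. The 31 included all 11 paired positions around ZFP36, where pileups were high. Without ZFP36 the paired positions were 26 of 36 DMSO peaks.

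The 13 DMSO peaks without a counterpart included a peak of 26 fragments 15.3 kb upstream of EGR1 and a peak of 118 fragments 4.21 kb upstream of ZFP36. Others were the peaks past the 3′ ends of DUSP1, IER5 and NR4A1 given above, and a peak of 22 fragments at NACC1 and TRMT1, 33.6 kb upstream of IER2. Near PPP1R15A, 2 DMSO peaks of 17 and 24 fragments and an inflachromene peak of 17 fragments all lay at HSD17B14, the DMSO peaks also at PLEKHA4, and none overlapped a peak of the other library. The peak 27.8 kb downstream of the PPP1R15A start lay at NUCB1, with 17 fragments in inflachromene and 26 in DMSO. EGR1 had a distal peak 26.6 kb downstream of its start in inflachromene, with 15 fragments against 26 in DMSO.

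Among all protein-coding genes 36.3% had an end peak in both lists. Of 9 regulators of this gene class 6 had one in both, and NAB1, encoding a corepressor of EGR proteins, in DMSO alone with 15 fragments. ELK1, encoding an ETS partner of serum response factor, had 69 fragments in both libraries, at a peak it shares with UXT. The serum response factor gene SRF had 52 in inflachromene and 66 in DMSO, CREB1 had 60 and 82, and MRTFA, encoding an actin-regulated coactivator of serum response factor, had 46 and 51. Backgrounds of 10 or more were absent from this list and from the 15 paralogues, of which 11 had an end peak under both treatments and 4 under neither.

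Of 26 other immediate early genes, 18 had an end peak in both lists, KLF4, CCN2 and GADD45B in DMSO alone with 14, 34 and 39 fragments, and the neuronal gene NPAS4 in inflachromene alone with 19. The ratio was below 1 at 9 of the 18, above 1 at 8 and equal at 1, against 77.3% below 1 over all genes, with a median of 0.952 against 0.821. The peak was picked in each list on its own, so some ratios, here and over all genes, may compare different peaks. FOSB had 64 fragments in inflachromene and 38 in DMSO, with backgrounds of 24.4 and 11.7. The AP-1 gene JUN had 118 fragments in inflachromene and 144 in DMSO, TRIB1, a pseudokinase gene, had 87 and 86, and MAFF had 30 and 45. A background of 10 or more was found at CCN1, FOSB, FOSL1 and JUN in inflachromene, and at these, FOS and KLF6 in DMSO. In fragments per base it was 17.2 in inflachromene and 19.9 in DMSO at CCN1, and 7.94 and 10.9 at FOS. These lists were drawn up with results of these data known, and their counts are descriptions.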

How the data were processed

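ChIPmentation peaks from PANC-1 cells treated with inflachromene or DMSO were used, 1 library each, grouped by the treatment label. Per the submitters' processing notes, the authors used MACS2 and deepTools 3.5.6 with hg38; the sources used here do not give the aligner, duplicate handling or any control library. The deposited lists give, per peak, a score (not used), the summit's fold enrichment, which is a ratio, and -log10 p-values and -log10 q-values. The lowest deposited -log10 q was 3.01 in inflachromene and 3.02 in DMSO. The pileup, the number of fragments over the summit, was recovered as the whole number for which (pileup + 1)/(background + 1) and the Poisson upper tail match the deposited fold enrichment and -log10 p. All peaks matched within 0.001, and on simulated data the step returned 1000 of 1000 pileups in each class tested, background of 10 or more included; those data assume the same formulas.

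The background was read as coming from the same library, in steps of 1 fragment end per 10 kb; this is an inference. It was a whole number of steps, within 0.1 step, in 100% of peaks with a background between the lowest level and 20. Genes came from RefSeq GRCh38.p14, whose coordinates are those of hg38, and coordinates are 1-based. Where a gene had several end peaks, that of highest fold enrichment was used in each list. Paired peaks overlap by at least 1 bp, and a ratio is inflachromene over DMSO pileup. With 1 library a group no test was made. Shares carry Clopper-Pearson and pileups Poisson intervals, and ratios the interval of the share of both counts together. The intervals of shares treat genes or peaks as independent draws, which chosen genes and peaks of 1 locus are not. All listed genes are named; of the further lists, genes in 1 list alone and the 3 of highest mean fold enrichment, plus SRF, paralogues and high-background genes chosen after their values were seen. Members and lists were chosen with earlier results of these data known. Python 3.11.15, numpy 2.4.6, scipy 1.17.1 and pandas 2.3.3 were used.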

Additional observations from a re-analysis of the deposited data

How the results depend on the processing

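No paired analysis was possible because each treatment had 1 library, and no replicate could be left out. Leaving out ZFP36 was chosen after the data were examined. With an end window of 500 bp, 5 genes had a DMSO peak and 5 a peak in both lists, as IER2 and NR4A1 had only summits farther out, and EGR1 in DMSO. EGR1 thus had an end peak in inflachromene alone at that window, and with 2500 bp EGR3 had one in DMSO alone. With the DMSO list cut by fold enrichment to the length of the inflachromene list, 4 genes had a DMSO peak and 4 both, the median ratio was 0.641, and 18 DMSO peaks were left within 50 kb, with 14 DMSO and 14 inflachromene peaks overlapped. That cut removed EGR1, IER2, ZFP36 and DUSP1, the genes of high background. The median ratio was 0.689 with the peak of highest -log10 p at each end and 0.916 by fold enrichment. With the peak of highest -log10 p, the ratio was 0.671 at ZFP36 and 0.707 at EGR1, since at both the inflachromene promoter peak was then set against the DMSO peak past the 3′ end, and the ratio at EGR1 turned below 1. Within 100 kb lay 78 DMSO peaks. Without peaks nearest to another gene, 25 inflachromene and 29 DMSO peaks were left within 50 kb, of which 24 and 23 were overlapped. The other 41 summary values moved by less than 1.5 times or stayed within counting error, and 64 of 65 values for single genes stayed within their counting intervals. Most of the single-gene values could not move, because the setting kept the same pair of peaks, so that count is little check on them. Across these settings the ratio at IER5 ran from 0.556 to 0.635 and that at EGR1 from 0.707 to 1.08. Depth limits single genes: counting error alone spans ratios of 0.449 to 1.79 at BTG2.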
